A study of Mus musculus with 20 samples.

Results

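The small nuclear RNA (snRNA) features of the small RNA table of mouse embryonic stem cells were examined across 3 cell states sorted by Nanog and Sox2 level. A feature is 1 annotated gene with 1 deposited value in each group. The members were chosen by measured values: every feature of gene type snRNA whose mean over the 4 groups was at least 10, which gave 37 of 384 snRNA features and of 26278 features of all types in the table. They held between 97.0% and 97.5% of the summed snRNA value in each group. A further 69 snRNA features had a mean of 1 to 10, and 278 had a mean under 1. The members nearest above the limit were Gm23511, Gm23686 and Gm25202, with means of 10.4, 14.9 and 15.1. Those nearest below it were Gm24924, Gm24763 and Gm26505, with means of 8.46, 8.43 and 7.23.

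All groups were embryonic stem cells grown in 10% fetal bovine serum with leukemia inhibitory factor, and no genotype, line or treatment that sets groups apart is given in the labels. State 1 is high in Nanog and Sox2, state 2 is low in Nanog and high in Sox2, and state 3 is low in both. The total population is the fourth group, and its label names no Nanog or Sox2 level. Each group had 2 small RNA libraries and 3 rRNA-depleted RNA-seq libraries, which the authors merged into 1 value per feature and group. No SD or test between libraries was therefore possible. A difference was called where the authors' model gave a summed probability of at least 0.95 that 2 groups differ.

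snRNAs are short, stable, non-coding RNAs of the nucleus that assemble with proteins into small nuclear ribonucleoproteins (snRNPs). U1 snRNA pairs with the 5′ splice site, U2 with the branch site, and U4, U5 and U6 join as a tri-snRNP. U11 and U12 take the places of U1 and U2 in the minor spliceosome, which removes a rare class of introns. Most snRNAs are made by RNA polymerase II from repeated, near-identical genes. They are trimmed by the Integrator complex, given a ring of Sm proteins by the SMN complex in the cytoplasm, and matured in Cajal bodies.

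The sorted groups followed their labels in RNA-seq. Nanog had values of 4145, 743 and 440 in states 1, 2 and 3, and Sox2 had 4155, 3167 and 1306. Pou5f1, which marks embryonic stem cells, stood between 9826 and 13810 in the 4 groups. The small RNA column totals were 5.13 M in state 1, 3.43 M in state 2, 2.61 M in state 3 and 4.15 M in the total population. An estimate from the smallest common value put the depth at 5.61 to 10.9 M small RNA reads per group and 48.0 to 60.4 M RNA-seq reads. The lowest small RNA depth, 5.61 M, was that of the total population. By the same estimate 3 small RNA reads correspond to a value of 0.93 to 2.22.

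The label spliceosomal held only in part. Of the 37 members, 6 carry snRNA symbols: Rnu5g, Rnu1b6, Rnu2-10, Rnu11, Rnu12 and Rnu7. Rnu7 is the U7 snRNA, which acts in the 3′ end processing of histone mRNA and is not a spliceosomal RNA. The other 31 have predicted-gene symbols (Gm numbers), and the sources used here do not give their families. RefSeq (GRCm38.p6) has an snRNA model for 30 members and calls Gm25106 and Gm22971 pseudogenes. The remaining 5, Gm24871, Gm26232, Gm23849, Gm22710 and Gm24402, had no matching snRNA or pseudogene model. The members were therefore grouped by the length of their RefSeq model. There were 6 of 116 bases, the length of Rnu5g, 5 of 164 to 166 bases, the length of Rnu1b6, and 12 of 187 to 191 bases, the length of Rnu2-10. A pair had 141 bases, and 7 had another length. A shared length does not establish a family.

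Member means ran from 10.4 to 1159, with a median of 119, and 23 members had a mean of at least 100. The 4 highest held 38.1% of the summed member value and the 10 highest held 70.7%. No source used here says whether these values are divided by gene length. If they are not, the mean level per 100 bases of RefSeq model was highest for Rnu7 at 1402. Rnu5g at 999, Gm25313 at 572 and Gm25360 at 486 followed. The order of single loci can depend on how the authors' counting divided reads among near-identical copies. In bulk samples, fewer cells of a type and less RNA per cell cannot be told apart.

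**Figure D1:**
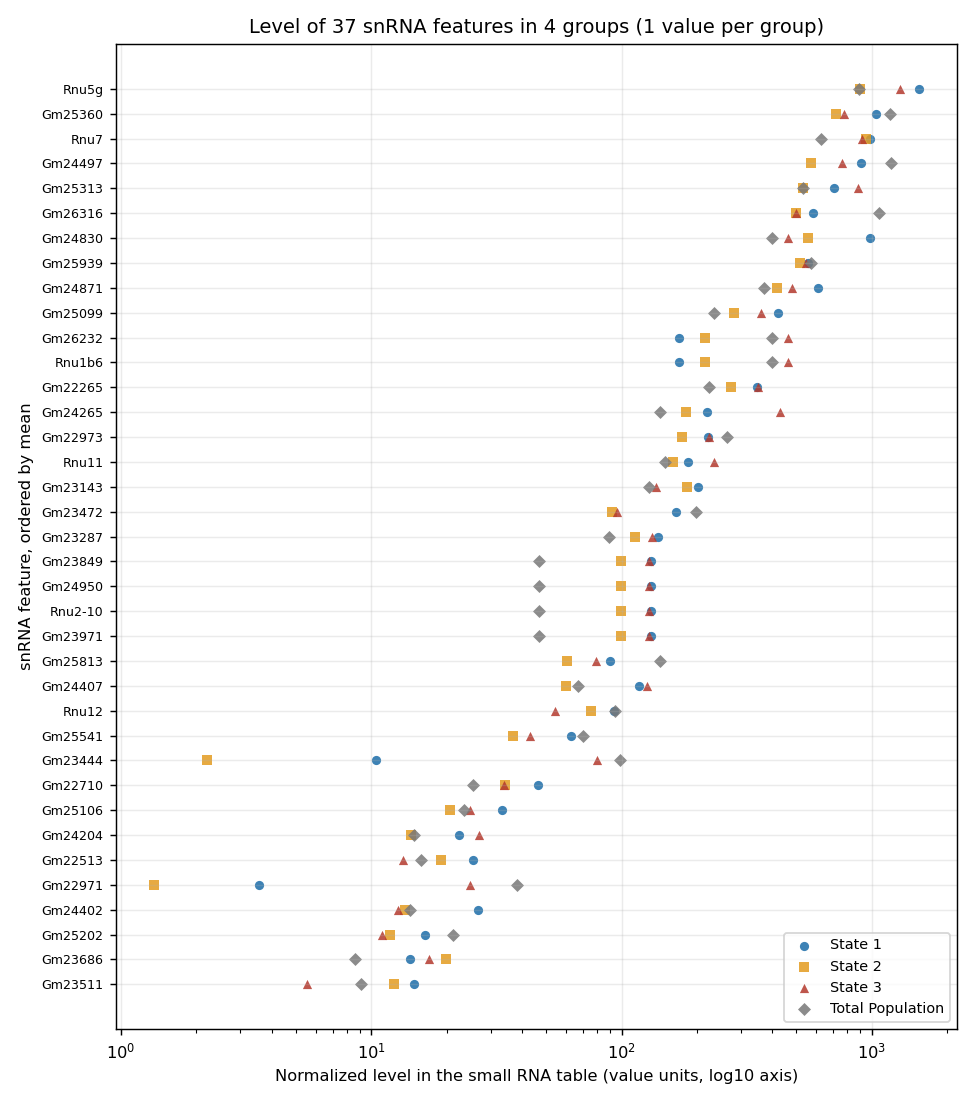
Small RNA level of each of the 37 snRNA features (vertical axis, ordered by mean) in the 4 groups, on a log10 horizontal axis in the deposited value units; each point is 1 group value made from 2 libraries, so no error bar can be drawn. In 19 of the 37 features the highest value is under 2 times the lowest. For Gm23444 and Gm22971 states 1 and 2 lie far to the left of state 3 and the total population.

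U5 snRNA holds the exons in place at the centre of the spliceosome. Rnu5g (ENSMUSG00000095892.1, chromosome 9 from 65201726 to 65201841), a U5 gene and the most abundant member before length is considered, had values of 1548 in state 1, 896 in state 2, 1299 in state 3 and 893 in the total population. Gm25313 lies within 5.27 kb of it and had 708, 533, 884 and 531 in the same order. In both, state 2 and the total population were the low groups and lay close to each other. The third, Gm25099 on chromosome 4, had 423 in state 1, 282 in state 2, 361 in state 3 and 234 in the total population. All 6 features of 116 bases had a lower value in state 2 than in state 1 and a higher value in each of the 3 states than in the total population. Their highest group exceeded their lowest by 1.56 to 1.80 times, and none of these differences was called. The sum over the 6 was 3369, 2282, 3165 and 2099 in states 1, 2, 3 and the total population.

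The features with the length of Rnu2-10, the only member with a U2 symbol, had the largest summed value. That sum was 3983 in state 1, 2950 in state 2, 3448 in state 3 and 4876 in the total population. It made up 32.6% to 35.4% of the member sum in the 3 states and 49.3% in the total population. Of the 12, 9 had a higher value in the total population than in each sorted state, the reverse of the order in the features of 116 bases. Gm25360 (ENSMUSG00000094655.1, chromosome 1 from 72226240 to 72226430) had 1039, 722, 772 and 1179. Gm24497 had 903, 573, 758 and 1191, and its probability of 0.43 for state 2 against state 1 was the highest among the members in that comparison. Gm26316 on chromosome 11 had 585, 498, 497 and 1066, so the total population stood apart from 3 sorted states that lay close together. Gm25939 varied least of all members, with 557, 519, 546 and 572, a ratio of 1.10 between its highest and lowest group. None of these differences was called.

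Several of these genes are neighbours. Gm25360, Gm23472, Gm24497 and Gm25939 lie within 29.0 kb on chromosome 1, from 72226240 to 72255198. Gm26316, Gm24950, Gm23971 and Rnu2-10 lie within 53.6 kb on chromosome 11, from 101604850 to 101658424. The summed values of the chromosome 1 group were 2664, 1905, 2171 and 3141, and those of the chromosome 11 group were 979, 796, 884 and 1207. State 2 was the lowest group and the total population the highest in both sums. In the chromosome 11 sum the high total population came from Gm26316 alone, with 1066 of the 1207. Gm24950, Gm23971 and Rnu2-10 each had their lowest value there, at 46.9. State 2 lay below state 3 in that sum through those 3 genes, at 99.2 against 128 to 129 each. Gm26316 had 498 in state 2 and 497 in state 3.

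U1 snRNA starts spliceosome assembly. Rnu1b6 (ENSMUSG00000065773.1, chromosome 3 from 96460024 to 96460189) had 170 in state 1, 216 in state 2, 464 in state 3 and 401 in the total population. Gm24830, a gene of the same length on chromosome 3, had 987, 557, 464 and 401. The log2 ratio of state 3 to state 1 was 1.45 for the first and -1.09 for the second, which are opposite directions. Their values were identical in state 3 and in the total population, and Gm26232 had the values of Rnu1b6 in all 4 groups. Summed over these 3 features the values were 1326, 988, 1392 and 1202, so states 1 and 3 differed by far less than for either gene alone. The authors' counting could split reads among near-identical copies, and the single values of Rnu1b6, Gm24830 and Gm26232 are uncertain for that reason.

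The same held for Rnu2-10, Gm24950 and Gm23849, which shared the values 131, 99.2, 129 and 46.9 in states 1, 2, 3 and the total population. Gm23971 differed from them only in state 3, at 128. The 3 other features of 164 bases, Gm22513, Gm23686 and Gm23511, had means of 18.4 or less. Gm23686, at 14.3, 19.8 and 17.0 in states 1, 2 and 3, was the only member with a value in state 2 above those of both other states.

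Gm24265 and Gm24407 of 141 bases lie within 0.936 kb on chromosome 5, from 115489459 to 115490394. Gm24265 had 219 in state 1, 181 in state 2, 429 in state 3 and 143 in the total population, with state 3 apart from the other groups. The most probable pattern in the authors' model, at 0.71, also set state 3 apart, and the probability of a difference between states 3 and 1 was 0.73, below the call. Gm24407 had 117, 60.0, 126 and 67.3, so states 1 and 3 were its high groups. The 2 genes thus had their highest values in the same group but did not share an order in the others.

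Both minor spliceosome RNAs with a symbol of their own were members. Rnu11 (U11, chromosome 4) had 184 in state 1, 161 in state 2, 234 in state 3 and 149 in the total population. Rnu12 (U12, chromosome 15) had 93.2, 75.3, 54.1 and 94.0. State 3 was therefore the highest group for U11 and the lowest for U12. The log2 ratio of state 3 to state 1 was 0.34 for Rnu11 and -0.77 for Rnu12, and the probability of a difference for Rnu12, at 0.88, was the highest of any member in that comparison. Neither was called. Rnu7 on chromosome 6 had 988, 953, 911 and 625, so the 3 states lay close together above the total population.

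The largest ratios belonged to 2 features of low level. Gm23444, a gene of 191 bases on chromosome 11, had 10.4 in state 1, 2.21 in state 2, 79.6 in state 3 and 98.8 in the total population. Gm22971, the RefSeq pseudogene on chromosome 6, had 3.57, 1.36, 24.9 and 38.2. In both, states 1 and 2 were low and state 3 and the total population high, and that was also the most probable pattern for each, at 0.63 and 0.74. The log2 ratio of state 3 to state 2 was 4.65 and 3.46, with probabilities of 0.935 and 0.940, which missed the call. The lowest values are close to the value of 3 reads, 1.11 in state 2. RNA-seq listed Gm23444 with values of 215, 197, 345 and 253, identical to those of Gm23472, and the sum of those 2 genes in the small RNA table was 175, 93.9, 176 and 298. In that sum state 3 matched state 1.

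Across all 37 members the ratio of the highest to the lowest group had a median of 1.92 and was under 2 in 19 members. The highest group was state 1 in 16 members, the total population in 12, state 3 in 8 and state 2 in 1. The lowest group was the total population in 17, state 2 in 12, state 3 in 6 and state 1 in 2. State 2 lay below both other sorted states in 24. The pattern with all 4 groups equal was the most probable one for 33 members. The other 4 were Gm24265, Rnu12, Gm23444 and Gm22971.

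No member was called in any comparison. Between states 2 and 1, 0 of 37 were called, beside 3.89% of the 3986 small RNA features with a mean of at least 10. Between states 3 and 2 it was 0 of 37 beside 5.72%, and between states 3 and 1 it was 0 of 37 beside 9.53%. Against the total population, 0 of 37 were called for state 1 beside 0.978% of features, for state 2 beside 3.14% and for state 3 beside 7.88%. A count of 0 of 37 beside shares this low is not read as a result about the members. At a lower limit of 0.90, 2 members passed between states 3 and 2 and between state 2 and the total population, Gm23444 and Gm22971 in each case. These 2 are 5.41% of the members, beside 6.52% and 3.74% of all features at that limit in the 2 comparisons, so this count is not read as a result about the members either.

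**Figure D2:**
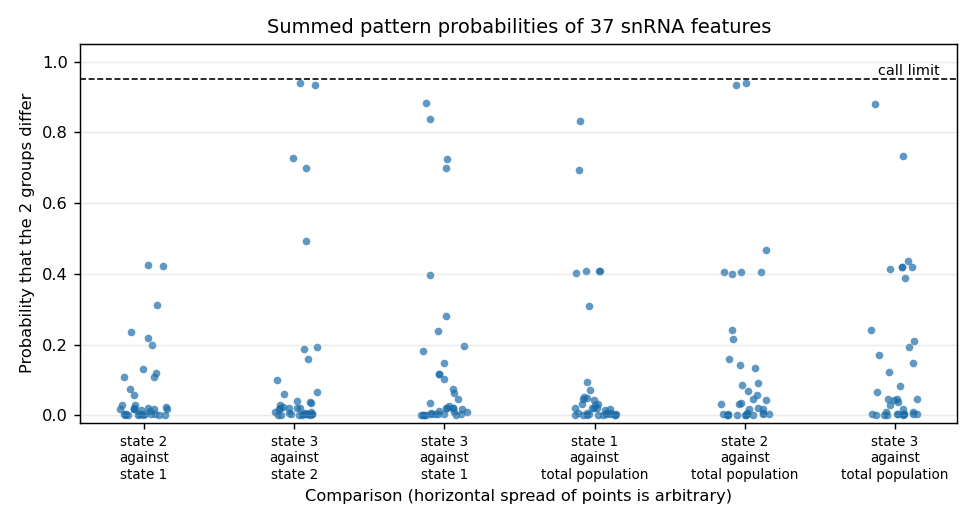
Summed probability that 2 groups differ (vertical axis) for each of the 37 snRNA features in 6 comparisons (horizontal axis), with the limit of 0.95 as a dashed line. No point reaches the line, and the points nearest to it, at 0.935 and 0.940, are Gm23444 and Gm22971.

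As deposited, the members' log2 ratio of state 2 to state 1 had a median of -0.40, with 34 of 37 values below 0, while the median of all 3986 features was -0.03. State 3 to state 2 had a median of 0.35, with 26 above 0 and an all-feature median of 0.01. State 3 to state 1 had a median of -0.12, with 12 above 0 and an all-feature median of -0.00017. Log2 ratios were formed after adding 1 to each value. Members that share reads are not separate measurements, so these counts describe the table only.

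**Figure D3:**
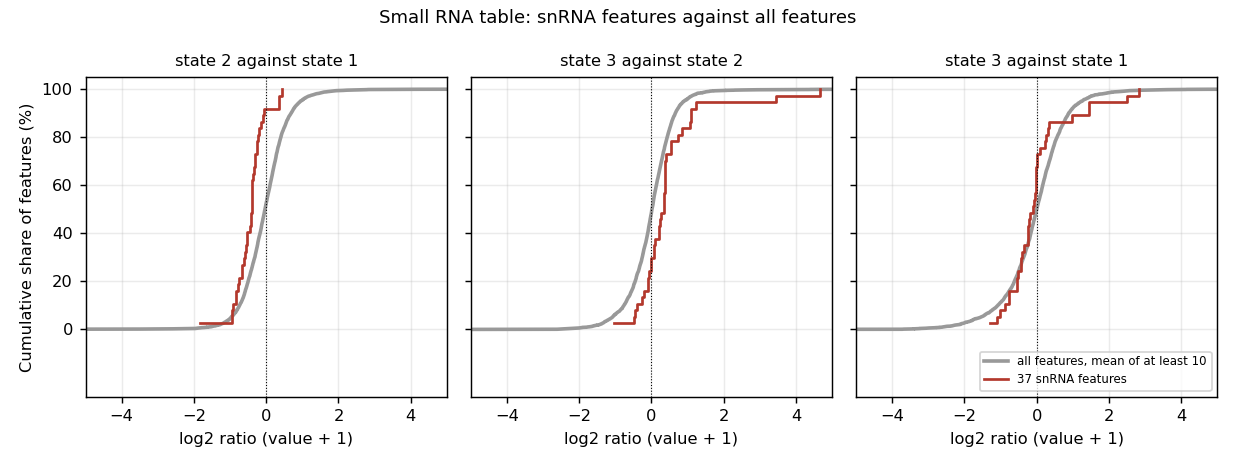
Cumulative share of features (vertical axis, percent) by log2 ratio of the value + 1 (horizontal axis) for the 37 snRNA features and for all small RNA features with a mean of at least 10, in 3 comparisons of sorted states. The snRNA curve lies to the left of the other for state 2 against state 1, where 34 of 37 features are below 0, and mostly to the right for state 3 against state 2.

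The directions of state 2 to state 1 and of state 3 to state 1 depend on the scale. The deposited columns have different totals, and the microRNA share of the column was 65.3% in state 1, 58.6% in state 2 and 38.9% in state 3. When each value was divided by its column total, the median for state 2 to state 1 became 0.17 and that for state 3 to state 1 became 0.86, with all-feature medians of 0.52 and 0.93. Such a division shifts every feature by nearly the same amount, so the gap between the members and all features stays by arithmetic and is no sign of stability. Scaling by the median ratio of features to their geometric mean over the groups kept every sign. The medians were then -0.38 for state 2 to 1, 0.34 for state 3 to 2 and -0.11 for state 3 to 1. State 3 to state 2 had a median above 0 on each scale tried, from 0.34 to 1.33, as did all features. For the other comparisons of states, a sign for the members without such a reference holds only for the scale it was computed on.

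The summed member value was 11269 in state 1, 8340 in state 2, 10571 in state 3 and 9891 in the total population. As a share of the column this was 0.220%, 0.243%, 0.405% and 0.238%. The share was highest in state 3, where the sum itself was not. Other classes differed in the same column. The log2 ratio of summed values of state 3 to state 1 was -1.72 for microRNAs, -0.98 for small nucleolar RNAs (guides of rRNA modification), -0.60 for small Cajal body RNAs (guides of snRNA modification), 0.74 for rRNA and 0.83 for mitochondrial rRNA. It was -0.09 for the snRNA members. What part rRNA and mitochondrial rRNA fragments had in the share of snRNA was not tested. Rn7sk, the non-coding RNA that restrains the elongation factor P-TEFb and is not of type snRNA here, had 774, 593, 1027 and 665.

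**Figure D4:**
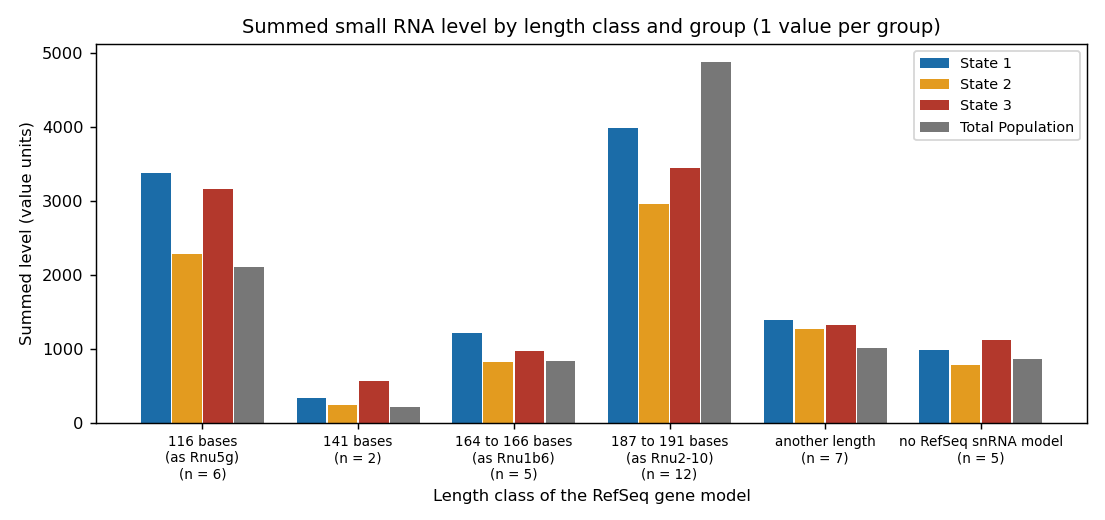
Summed small RNA level (vertical axis, deposited value units, starting at 0) of the 37 snRNA features by length class of the RefSeq model (horizontal axis), 1 bar per group. The 116-base class is lowest in state 2 and the total population, whereas the 187 to 191-base class is highest in the total population at 4876.

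RNA-seq gave a second measurement of the same genes, which the choice of members did not use. Its libraries are labelled replicates A, B and C and the small RNA libraries D and E. The 2 measurements may therefore come from different cell samples. RNA-seq listed 31 of the 37, and Rnu7 was among the 6 that it did not list. Of these, 19 had an RNA-seq mean of at least 10 and 10 had a mean under 2. All 6 features of 116 bases had RNA-seq means between 0.16 and 0.57, although their small RNA means were 119 to 1159. Of the 11 listed features with the length of Rnu2-10, 10 had an RNA-seq mean of at least 10, up to 422 for Gm25360. The 5 of 164 to 166 bases were spread from 0.25 to 285, with 3 at 10 or more. Gm23686 and Gm23511, at 0.44 and 0.25, also had the lowest small RNA means of all members, 14.9 and 10.4. Rnu11, of 108 bases, had an RNA-seq mean of 7.45, and the pair of 141 bases had 39.1 and 47.4. Whether length has a part in the RNA-seq level was not tested. Rnu5g had RNA-seq values of 0.32, 0.00, 1.44 and 0.51, at or under the level of a few reads, so no fold is given. Across the 31, the Spearman correlation of the mean values in the 2 tables was 0.09, a description only, since the points share reads.

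State 3 had the highest RNA-seq value of the sorted states in most of them, without a call. It was above state 1 in 30 of 31 and above state 2 in 29 of 31, while state 2 was above state 1 in 12. These counts include the 10 features with a mean under 2, whose values are near the level of a few reads. Of the 19 with a mean of at least 10, some of which share values, all 19 were highest of the sorted states in state 3. Rnu1b6 had 244 in state 1, 218 in state 2, 508 in state 3 and 172 in the total population. Gm25360 had 310, 287, 624 and 466, and Gm24497 had 95.2, 50.6, 488 and 194. Rnu12 had 42.2, 39.1, 85.2 and 53.7, so state 3 was its highest group here and its lowest group in the small RNA table. In Rnu1b6, Gm25360, Gm24497 and Rnu12 state 3 therefore stood above the other states, and above the total population too. Gm24830 and Gm26232, also among the 19, each had 35.1 in state 3 but 86.6 in the total population. Summed over the 19 genes with a mean of at least 10, the values were 2010, 1794, 4384 and 2793, a ratio of 2.18 for state 3 to state 1. Selecting on the RNA-seq mean favours genes high in some group, and this sum carries no test.

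None of the 31 was called in RNA-seq. The background holds only features with a mean of at least 10, and 12 of the 31 lay under it. The like set is therefore the 19 members above it, with 0 called in each comparison. Some of these share values, so the count is not read as a result about the members. Between states 2 and 1 the background was 13.4% of 15106 features called higher and 12.2% called lower. Between states 3 and 2 it was 10.1% and 6.19%, and between states 3 and 1 it was 20.8% and 17.3%. The highest probability was that of Gm22513, at 0.88 for state 3 against each of the other 2 states, with values of 193, 167, 362 and 215. The members' median log2 ratio over the 31 was -0.11, 0.85 and 1.00 for state 2 to 1, state 3 to 2 and state 3 to 1, beside all-feature medians of -0.01, -0.01 and -0.02. In the small RNA table the same ratio of state 3 to state 1 had a median of -0.12 over the 37. Rnu2-10, Gm24950 and Gm23849 again shared 1 set of values, as did Gm24830 and Gm26232.

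**Figure D5:**
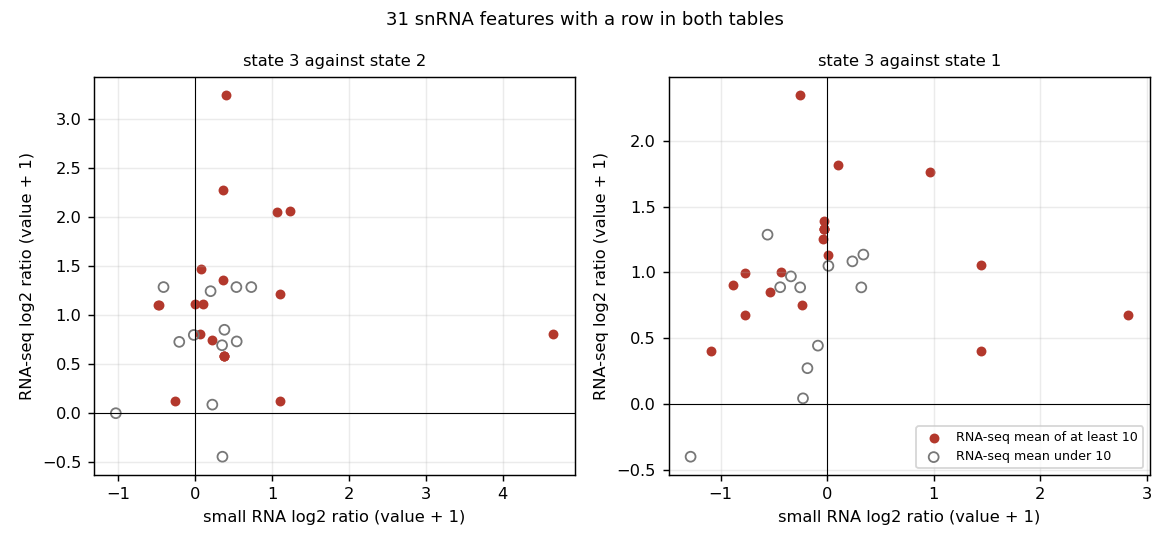
RNA-seq log2 ratio (vertical axes) against small RNA log2 ratio (horizontal axes), both of the value + 1, for the 31 snRNA features listed in both tables, for state 3 against state 2 (left) and state 3 against state 1 (right); filled points have an RNA-seq mean of at least 10 and open points a lower one. In the right panel 30 of 31 points lie above 0 on the RNA-seq axis, while they lie on both sides of 0 on the small RNA axis.

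Other snRNA genes and other cell markers stood beside this. The 13 snRNA rows with an RNA-seq mean of at least 10 that were not members held the only called ones. Of these 13, 6 had a higher value in state 3 than in state 1 and 7 a lower one. A value above that of state 1 was thus not found in every snRNA row. The 7 included Rnu1a1, a U1 gene, and the 4 genes Gm26444, Gm22068, Gm23804 and Gm22634. These 5 shared the values 83.1, 38.9, 46.6 and 101 in states 1, 2, 3 and the total population. Rows that share values are not separate measurements, so the counts of 6 and 7 describe the table only. Among all 32 snRNA rows with that mean, members included, state 3 was above state 2 in 30 and below it in 1. Gm22317 and Gm25679 shared the values 264, 379, 878 and 307 and were called higher in state 3 than in states 1 and 2. Gm24924 had 118 in state 1 and was listed at 0 in the other 3 groups. The 5 fibroblast markers Col1a1, Col3a1, Dcn, Lum and Thy1, which feeder cells would carry, summed to 68.2 in state 1, 173 in state 2, 1067 in state 3 and 176 in the total population, and all 5 had a higher value in state 3 than in state 1. Col1a1 had 23.0, 107 and 827 in states 1, 2 and 3. Dcn was listed at 0 in state 1 and Lum at 0 in state 2. Lum, at 0.32 in state 1 and 1.46 in state 3, lay near the value of 3 reads, 0.96 and 1.08 there. Thy1 went only from 42.2 in state 1 to 59.3 in state 3. The part of such cells in the RNA-seq values of snRNA genes was not tested.

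The genes that make snRNAs and package them into snRNPs were read in RNA-seq from 10 lists. Of their 117 genes with a mean of at least 10, 24 fell and 4 rose from state 1 to state 3, and 89 were not called. From state 1 to state 2, 18 fell and 5 rose, and from state 2 to state 3, 5 fell and 0 rose. These were 15.4% lower and 4.27% higher beside backgrounds of 12.2% and 13.4%, and 4.27% lower and 0% higher beside 6.19% and 10.1%. Their median log2 ratio was -0.18 for state 3 to state 1, beside -0.02 for all features. For state 3 against state 1 the share that fell, 20.5%, was near the background of 17.3%, and the share that rose, 3.42%, was below the background of 20.8%. The counts of the single lists that follow describe a few genes each and are to be read beside those 2 backgrounds, and no list was tested.

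Of 13 snRNA transcription genes, 5 fell and 1 rose from state 1 to state 3, or 38.5% and 7.69%. Pou2f1, the octamer-binding activator of snRNA promoters, went from 4426 in state 1 to 3777 in state 2 and 3352 in state 3. Tbp, the TATA-binding protein, went from 678 to 517 between states 1 and 3, and Snapc5, a subunit of the complex that binds snRNA promoters, from 159 to 114. Of 14 Integrator subunits, 5 fell, or 35.7%, and 0 rose. Ints4, part of the cleavage module, had 1547 in state 1, 1053 in state 2 and 1010 in state 3, a log2 ratio of -0.61. Ints3 and Ints7 fell by 0.56 and 0.47 on the log2 scale. In each of these Integrator genes the difference between states 1 and 2 was called and that between states 2 and 3 was not.

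Of 19 assembly genes, 3 fell and 0 rose from state 1 to state 3, and that share of 15.8% was near the background of 17.3%. Coil, the scaffold of Cajal bodies, had 788, 580 and 520 in states 1, 2 and 3, and Gemin2, of the SMN complex, had 379, 304 and 252. Gemin4 had 2262, 2058 and 1577. End processing and turnover gave 1 of 12 in each direction: Larp7, which binds the 3′ ends of U6 and 7SK RNA, rose from 843 to 1051, and Tut1, the U6 uridylyl transferase, fell from 1002 to 729.

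Of the 8 Sm genes of the snRNP core, Snrpn rose from 1622 in state 1 to 2042 in state 3, with its highest value of 2858 in state 2, and Snrpf fell from 1844 to 1435. None of the 9 Lsm genes of U6 and U7 snRNPs was called, and Lsm3 stood at 1149, 1196 and 1165 in states 1, 2 and 3. None of the 3 U1 proteins was called, with Snrnp70 at 5843, 5176 and 4853 and Snrpa at 2155, 1989 and 2016. Of 12 U2 proteins only Sf3b1, which binds at the branch site, was called between states 1 and 3, with a fall from 9960 to 7876. Of 17 tri-snRNP proteins 4 fell (23.5%), among them Prpf3, Prpf6 and Sart1, by 0.36, 0.34 and 0.37 on the log2 scale. Of 10 minor spliceosome proteins 4 fell (40%) and 1 rose. Zmat5 fell by 0.56 and Snrnp25 by 0.62 on the log2 scale, while Zcrb1, another U11/U12 protein, rose from 232 to 362.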

How the data were processed

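The authors sequenced 12 rRNA-depleted, strand-marked RNA-seq libraries and 8 small RNA libraries (40-base single reads), per the labels' protocols. Tools listed in the submitters' processing notes are RSEM 1.2.30 and STAR 2.4.1d, beside the builds mm10 and GRCm38. The unit of the group levels is a normalized signal that the authors deposited, 1 value per feature and group; no source used here gives its scaling. The authors also deposited a score for each of 15 EBSeq patterns of equal and unequal groups. Their order was inferred from the values: groups set equal lay closer than groups set apart in 93.8% of 161 small RNA features and 94.4% of 1453 RNA-seq features, and in 78.3% and 90.8% under the next best order.

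The probability of a difference was the sum of the scores of the patterns that set 2 groups apart, called at 0.95, with its direction from the values. The coding of the sums was checked on simulated pattern scores, which cannot test the inferred order or the calls. Log2 ratios used a pseudocount of 1, and the background was named features with a mean of at least 10. The calls rest on the authors' model, and nothing in the labels says that libraries came from separate cultures, so the spread may be technical. Depth was estimated from the commonest lowest value. Positions and lengths are RefSeq GRCm38.p6, matched by symbol, and a length class spans 4 bases either side of a member's length. pandas 2.3.3 and matplotlib 3.10.9 were used.

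The members and gene lists were chosen with earlier results of these data known. Named were all Rnu members, the 12 most abundant, the 3 on each side of the limit, the most abundant of each length class, called features, and per gene list up to 3 called genes with the largest ratio of state 3 to state 1 or the 2 most abundant. Other members and Rnu1a1 with its 4 copies were named after their values were seen. Alternatives were other call limits, mean limits, scalings and the next best pattern order.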

Additional observations from a re-analysis of the deposited data

How the results depend on the processing

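Of the recomputed values, 59 stayed within the tolerance for the same result, 8 moved past it (a count by over 1.5 times, or a log2 ratio by over 0.1) without a change of sign, and 8 reversed. With a call limit of 0.90, 2 members instead of 0 were called between states 3 and 2 and 2 between state 2 and the total population, or 5.41% of the members beside 6.52% and 3.74% of all features. Scaled to the column total, the median log2 ratio of the members was 0.17 for state 2 to 1, 0.74 for state 3 to 2 and 0.86 for state 3 to 1, and that of the summed value 0.15, 0.73 and 0.88. Scaled to the microRNA total, the medians were 0.33, 1.33 and 1.60, and the summed ratios 0.30, 1.32 and 1.63. Both scalings reversed the sign of state 2 to 1 and of state 3 to 1, because the column and microRNA totals are lower in state 2 than in state 1 and lowest in state 3. Scaled by the median ratio, the medians were -0.38, 0.34 and -0.11 and the summed ratios -0.42, 0.33 and -0.08, with the deposited signs. With a mean limit of 5, the median of state 3 to 2 was 0.20; the cause was not tested. With state 1 and the total population exchanged in the pattern order, 2 genes of the lists instead of 4 were higher in state 3 than in state 1, by construction of the other order. No paired analysis was possible because each table holds 1 value per group, and leaving out replicates was not run for the same reason. Depth limits Gm22971 and Gm23444, whose state 2 values are near that of 3 reads.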
